A study of Mus musculus with 17 samples.

Results

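The 10 genes Hspa5, Hsp90b1, Hyou1, Dnajb9, Sdf2l1, Pdia4, Calr, Creld2, Herpud1, and Xbp1 are the endoplasmic reticulum (ER) chaperones and unfolded protein response genes of this data set. They were chosen by name, with earlier results of these data known. Each probe whose gene symbol in the deposited table of log2 ratios is 1 of these genes was taken. This gave 15 probes for the 10 genes, of 41174 probes for 21452 genes on the array, and all 15 were among the 34664 probes tested, which stand for 19358 genes. Hsp90b1, Hyou1, and Calr had 2 probes each and Dnajb9 had 3, and the probe brightest in the liver channel stands for a gene unless another is named. All 15 were well above background on 17 of 17 arrays.

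Proteins that a hepatocyte secretes, such as albumin and the apolipoproteins, are folded in the ER with the help of resident chaperones. When unfolded proteins build up there, the sensors IRE1, ATF6, and PERK start the unfolded protein response. IRE1 splices the messenger RNA of Xbp1 so that it encodes an active transcription factor, ATF6 is cut to release another, and PERK slows translation and favors ATF4. XBP1 and ATF6 raise chaperones, folding enzymes, and the machinery that removes misfolded proteins, whereas ATF4 acts on amino acid and redox genes. Both fatty liver and ethanol are textbook settings of ER stress in the liver.

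Livers of 17 male mice were measured, 1 array per mouse. The chow group (n = 4) had a chow diet for 3 months and 1 gavage of maltose, and the 1B group (n = 4) had the same diet and 1 binge of ethanol at 5 g/kg by gavage. The HFD group (n = 4) had a high-fat diet for 3 months and the maltose gavage, and the HFD+1B group (n = 5) had the high-fat diet and the ethanol gavage. All mice thus had a gavage, and by the methods livers were taken 9 hours after it. The labels name C57BL/6N mice and the methods C57BL/6J mice, and a single binge at a single time says nothing of earlier or later hours. Each array held Cy5-labeled liver cDNA of 1 mouse and a Cy3-labeled common reference, labeled both as assorted mouse RNA and as liver, with no dye swap. Every value below is a log2 ratio of liver to that reference, or a difference between such ratios, and is not an absolute level. In whole liver, fewer cells of a type and less RNA per cell cannot be told apart, and p values measure the spread between these mice.

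The ER stress element (ERSE) is the sequence through which ATF6, together with NF-Y, acts on chaperone genes. It was searched on both strands as CCAAT, then 9 bases of any kind, then CCACG, in the 250 bases before the annotated start of each gene in RefSeq (GRCm38.p6). The related ERSE-II was searched as ATTGG, 1 base, and CCACG, the XBP1 site as TGACGTGG, and the ATF4 site as TTGCATCA. CCAAT and CCACG are the end parts of ERSE and lie within it, and ATTGG, the first part of ERSE-II, is CCAAT read on the opposite strand. A window was given for 9 of the 10 genes (Hyou1 had none). The 5 windows that hold ERSE or ERSE-II are shown because they differ in which element they carry. Capitals mark ERSE in the first 4 and ERSE-II and the ATF4 site in Herpud1.
Hspa5, chr2:34771840-34772089, plus strand: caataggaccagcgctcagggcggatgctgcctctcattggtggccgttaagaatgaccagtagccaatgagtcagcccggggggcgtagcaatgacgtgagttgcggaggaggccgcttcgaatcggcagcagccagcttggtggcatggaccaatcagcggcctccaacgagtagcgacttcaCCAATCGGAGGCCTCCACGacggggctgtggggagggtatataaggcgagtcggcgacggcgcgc
Hsp90b1, chr10:86705445-86705694, minus strand: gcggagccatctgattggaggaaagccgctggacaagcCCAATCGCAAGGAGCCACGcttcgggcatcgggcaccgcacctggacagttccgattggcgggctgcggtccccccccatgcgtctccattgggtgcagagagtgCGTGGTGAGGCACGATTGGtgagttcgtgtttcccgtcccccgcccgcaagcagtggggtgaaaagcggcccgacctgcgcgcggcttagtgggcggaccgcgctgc
Calr, chr8:84846932-84847181, minus strand: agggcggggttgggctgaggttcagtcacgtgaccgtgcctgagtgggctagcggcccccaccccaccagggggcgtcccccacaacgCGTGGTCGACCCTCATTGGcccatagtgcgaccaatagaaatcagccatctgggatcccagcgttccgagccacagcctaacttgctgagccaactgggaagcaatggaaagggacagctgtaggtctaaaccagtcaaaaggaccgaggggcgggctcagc
Creld2, chr15:88819396-88819645, plus strand: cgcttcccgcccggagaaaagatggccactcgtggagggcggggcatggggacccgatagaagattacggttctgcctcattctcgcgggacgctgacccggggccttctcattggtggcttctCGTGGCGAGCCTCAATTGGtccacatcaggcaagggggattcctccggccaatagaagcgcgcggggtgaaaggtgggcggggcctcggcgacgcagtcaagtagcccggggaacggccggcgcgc
Herpud1, chr8:94386179-94386428, plus strand: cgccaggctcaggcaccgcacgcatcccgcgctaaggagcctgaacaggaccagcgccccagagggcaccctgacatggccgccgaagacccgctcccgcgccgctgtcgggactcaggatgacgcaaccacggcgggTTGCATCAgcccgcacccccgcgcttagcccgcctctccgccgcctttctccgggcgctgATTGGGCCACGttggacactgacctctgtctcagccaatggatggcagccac

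ERSE was present in 4 of the 9 windows and in 0.113% of all 32851 windows of the RefSeq table. Hsp90b1 carried 2 exact copies, and no other window of the table carried more than 1. ERSE-II was in the window of Herpud1 only among the 9, and in 0.0304% of all windows, and the ATF4 site was also in Herpud1 only (0.791% of all). The XBP1 site was in 0 of the 9 (0.563% of all). Of the end parts, CCAAT was in 8 of 9 windows (33.8% of all) and CCACG in 7 of 9 (28.3% of all), and the window of Xbp1 held neither. In Hspa5 the ERSE lay 65 to 47 bases before the start, in Creld2 126 to 108, and in Calr 162 to 144. A match describes letters and is no evidence of binding, and letters absent from this window may lie outside it. Only exact matches were counted, so near matches within a window, as in that of Hspa5, are left out of these counts.

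**Figure D1:**
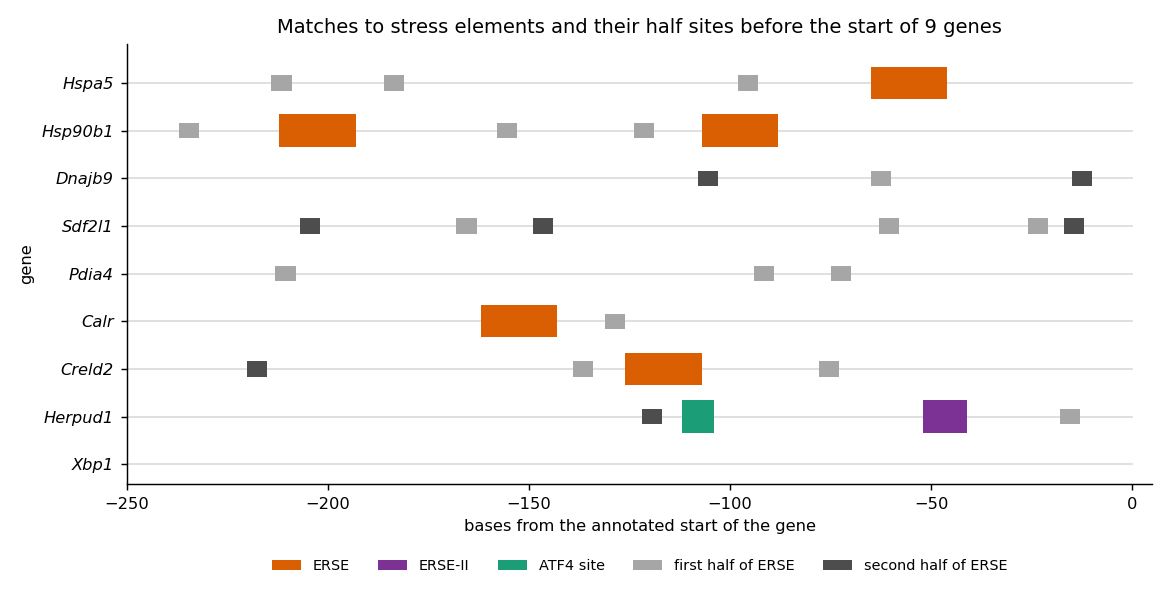
Positions of motif matches in the 250 bases before the annotated start of 9 genes (x axis, bases from the start; 1 row per gene). ERSE matches lie in Hspa5, Hsp90b1 (2 copies), Calr, and Creld2, Herpud1 has ERSE-II and an ATF4 site, and Xbp1 has no match.

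The arrays lay on 5 slides that held several groups each. Probes that stood well above background in the liver channel made up 77.7% to 79.5% in chow, 74.2% to 80.4% in HFD, 75.4% to 81.1% in 1B, and 78.5% to 86.1% in HFD+1B. Hspa5 had no usable spot in 1B mouse 4, HFD mouse 4, or HFD+1B mouse 4, the 3 arrays of slide 5, since the scanner software marked the spot as an outlier. For the same reason Pdia4 lacked chow mouse 1 and HFD+1B mouse 5, Creld2 lacked chow mouse 1, and the brightest probes of Hsp90b1 and Calr lacked HFD mouse 1, and each fit used the other arrays. A probe was called where its limma p, adjusted by Benjamini-Hochberg over the 34664 probes tested, did not exceed 0.05.

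The ER lumenal Hsp70 protein BiP, encoded by Hspa5, holds unfolded chains and keeps the 3 stress sensors inactive. The log2 ratio of Hspa5 was -0.38, -0.09, -0.74, and -0.44 in chow mice 1 to 4, and 1.19, 0.79, and 0.43 in 1B mice 1 to 3. It was -0.78, -1.03, and 0.40 in HFD mice 1 to 3, and -0.31, -0.996, -0.72, and -0.56 in HFD+1B mice 1, 2, 3, and 5. Every 1B mouse with a value lay above every chow and every HFD+1B mouse, and HFD mouse 3 lay just below the lowest 1B mouse. Hspa5 was 2.32-fold higher in 1B than in chow (log2 difference 1.22, SE 0.29, adjusted p 0.0274). With slide as a block the difference was 1.32 (adjusted p 0.0135), and within the 3 slides that held both groups it was 0.88 to 1.57. The call rests on few mice: it was lost without 1B mouse 1 (1.02, adjusted p 0.146), 1B mouse 2 (1.22, adjusted p 0.0798), or chow mouse 1 (1.23, adjusted p 0.0579), 3 (1.11, adjusted p 0.0928), or 4 (1.21, adjusted p 0.0748), and when arrays were centred on their median instead (1.13, adjusted p 0.0611).

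Hyou1 encodes GRP170, a large ER Hsp70 relative that exchanges the nucleotide of BiP. Its log2 ratio was -0.05, 0.63, -0.32, and 0.10 in chow and 0.95, 1.15, 0.60, and 0.64 in 1B. On the high-fat diet the ratio was -0.50, -0.67, -0.07, and -0.38 in HFD without ethanol and 0.09, -1.10, -0.51, -0.25, and -0.35 in HFD+1B, each in the order of the mice. Chow mouse 2 overlapped the 1B range, and all other mice of the remaining groups lay below every 1B mouse. The difference of 0.74 between 1B and chow was not called (SE 0.22, adjusted p 0.0832, and 0.0391 with slide as a block). The dimmer Hyou1 probe gave 0.02 for the same comparison (adjusted p 0.988), so the 2 probes of this gene disagree.

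GRP94, encoded by Hsp90b1, is the Hsp90 of the ER and folds integrins and Toll-like receptors. Its brightest probe was 0.16, -0.10, -0.26, and -0.19 in chow and 0.92, 0.42, 0.29, and 0.29 in 1B. It was -0.40, 0.43, and -0.29 in HFD mice 2 to 4, and 0.10, -0.44, -0.37, -0.04, and 0.02 in HFD+1B. Again all 1B mice lay above all chow and all HFD+1B mice, and HFD mouse 3 lay within the 1B range. The difference between 1B and chow was 0.57 on this probe (SE 0.19, adjusted p 0.118) and 0.64 on the dimmer probe (SE 0.15, adjusted p 0.0244), which was called. Without chow mouse 3 or 4 or 1B mouse 1 or 2 the dimmer probe was no longer called, with differences of 0.48 to 0.64, nor was it on the deposited log2 ratios (0.60, adjusted p 0.0772), with median centring (0.51, adjusted p 0.185), or with Cy5 signals alone (0.66, adjusted p 0.0707).

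Dnajb9 encodes ERdj4, a cochaperone that stimulates the ATPase of BiP and helps hold IRE1 inactive. Its log2 ratio was 0.08, -0.08, -0.37, and -0.22 in chow and 1.53, 1.00, 0.40, and 0.08 in 1B. On the high-fat diet the ratio was -0.22, -0.73, 0.69, and -0.54 in HFD without ethanol and -0.30, -0.95, -0.61, -0.73, and -0.72 in HFD+1B. The 1B and HFD mice were widely spread, 1B mouse 4 lay just below chow mouse 1, and every HFD+1B mouse lay below every 1B mouse. The 3 probes gave differences between 1B and chow of 0.90 (adjusted p 0.106), 0.82 (0.249), and 0.73 (0.280), all in 1 direction and not called. With slide as a block the brightest was called (1.08, adjusted p 0.0205).

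Sdf2l1 encodes a partner of the BiP cochaperone ERdj3 that keeps client proteins from aggregating. Its ratio was 0.09, 0.69, -0.61, and -0.24 in chow and 1.18, 0.69, 0.35, and 0.33 in 1B. On the high-fat diet the ratio was -0.57, -0.39, -0.64, and -0.90 in HFD without ethanol and -0.09, -0.82, -0.89, -0.51, and -0.47 in HFD+1B. Every 1B mouse lay above every HFD and every HFD+1B mouse, whereas chow mouse 2 reached the 1B range. The difference between 1B and chow was 0.66 (SE 0.24, adjusted p 0.184, and 0.0467 with slide as a block).

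**Figure D2:**
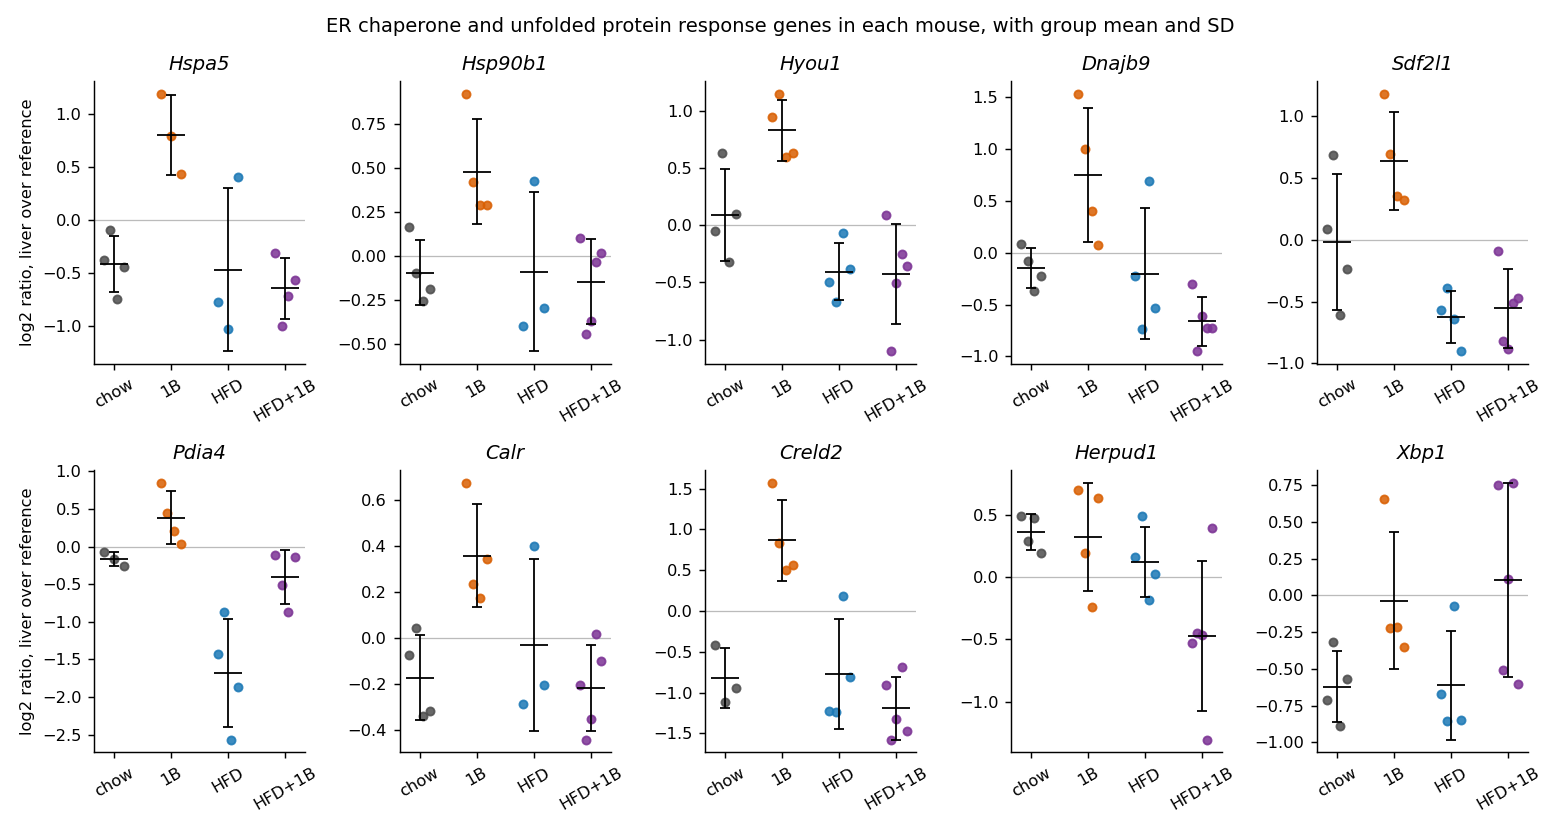
Log2 ratio of liver to reference (y axis) of the brightest probe of each gene in each mouse (points) by group (x axis), with the group mean and SD (bars). Hspa5 and Creld2 are higher in every 1B mouse with a value than in every chow mouse, and Pdia4 is lowest in the 4 HFD mice.

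Creld2 encodes a secreted and ER-resident protein with EGF domains that is induced by ER stress. Its log2 ratio was -0.41, -1.12, and -0.95 in chow mice 2 to 4, and 1.57, 0.83, 0.50, and 0.56 in 1B. The HFD mice had -1.22, -1.24, 0.19, and -0.81, whereas the HFD+1B mice had -0.91, -1.58, -1.32, -0.68, and -1.48. All 4 1B mice lay above all mice of the 3 other groups. Creld2 was 3.23-fold higher in 1B than in chow (log2 difference 1.69, SE 0.33, adjusted p 0.00666), the largest difference among the 10 genes, and with slide as a block the difference was 1.67 (adjusted p 0.0268). It was called in 17 of 17 fits that each left out 1 mouse, with differences of 1.46 to 1.90, but not with Cy5 signals alone (1.69, adjusted p 0.0586).

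Calr encodes calreticulin, the calcium-binding lectin chaperone of glycoproteins. Its ratio was -0.08, 0.04, -0.34, and -0.32 in chow and 0.68, 0.24, 0.17, and 0.34 in 1B. High-fat diet values were -0.29, 0.40, and -0.20 in HFD mice 2 to 4 without ethanol and -0.20, -0.44, -0.35, 0.02, and -0.10 in HFD+1B. On this probe, the brightest, the 1B mice lay above all chow and HFD+1B mice, by a small margin, and HFD mouse 3 lay within the 1B range. On the other probe chow mouse 2 (0.39) lay within the 1B range (0.29 to 0.89). The difference between 1B and chow was 0.53 on the brightest probe (SE 0.16, adjusted p 0.0776) and 0.49 on the other (SE 0.18, adjusted p 0.196).

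Pdia4 encodes ERp72, a disulfide isomerase of the ER, and had another pattern. Its log2 ratio was -0.07, -0.17, and -0.25 in chow mice 2 to 4 and 0.85, 0.44, 0.21, and 0.04 in 1B. Among mice on the high-fat diet it was -1.42, -0.87, -2.57, and -1.86 in HFD without ethanol and -0.11, -0.52, -0.87, and -0.14 in HFD+1B mice 1 to 4. The 4 HFD mice were the lowest, although HFD mouse 2 and HFD+1B mouse 3 had the same ratio to 2 decimals. Pdia4 was lower in HFD than in chow (log2 difference -1.51, SE 0.30, adjusted p 0.00558) and higher in HFD+1B than in HFD (1.27, SE 0.28, adjusted p 0.00562). Without slide 5 the latter difference was 1.12 and not called (adjusted p 0.0630). The 5 ribosomal RNA probes of the array were lowest in HFD too, with means of -3.81 to -2.15 in the HFD mice and group means of 0.44 in chow, -0.36 in 1B, and 0.17 in HFD+1B, and their part in the Pdia4 difference was not tested. The 1B mice lay above all chow mice, but the difference of 0.55 was not called (SE 0.30, adjusted p 0.477).

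Herpud1 encodes a membrane protein that assembles the HRD1 complex, through which misfolded proteins leave the ER for degradation. Its ratio was 0.49, 0.29, 0.48, and 0.20 in chow and 0.70, 0.19, -0.23, and 0.64 in 1B. High-fat diet values were 0.16, 0.49, -0.18, and 0.03 in HFD without ethanol and -0.53, -0.45, -0.47, -1.31, and 0.40 in HFD+1B. The chow values lay within the range of the 1B mice (difference -0.04, 95% interval -0.60 to 0.52, adjusted p 0.979), and 4 of 5 HFD+1B mice lay below all other mice. Herpud1 was lower in HFD+1B than in chow (log2 difference -0.84, SE 0.25, adjusted p 0.0302). The call was lost in 6 of 17 fits that left out 1 mouse: chow mouse 1 (-0.80, adjusted p 0.0752), 2 (-0.86, 0.0568), or 3 (-0.80, 0.0796), or HFD+1B mouse 1 (-0.82, 0.0504), 3 (-0.84, 0.0508), or 4 (-0.63, 0.0742). It was also lost without slide 5 (-0.63, adjusted p 0.0881).

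Xbp1, the transcription factor gene, was read by 1 probe, and splicing was not measured. Its ratio was -0.71, -0.32, -0.89, and -0.57 in chow and 0.65, -0.22, -0.21, and -0.35 in 1B. Among mice on the high-fat diet it was -0.67, -0.86, -0.07, and -0.85 in HFD without ethanol and 0.75, -0.51, 0.11, 0.77, and -0.61 in HFD+1B. HFD+1B mice 1, 3, and 4 lay above every chow and HFD mouse and mice 2 and 5 among them, and 1B mouse 1 stood above the other 1B mice. The differences were 0.59 for 1B and 0.73 for HFD+1B against chow (adjusted p 0.407 and 0.0977), and 0.72 for HFD+1B against HFD (adjusted p 0.0874, and 0.0418 with slide as a block). Xbp1 was not called in any comparison of the groups or in the interaction, and its difference between HFD+1B and HFD was 0.47 without slide 5 (adjusted p 0.394).

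The effect of the ethanol binge on a chow diet is the comparison of 1B with chow. Of the 15 probes, 3 were called higher (Hspa5, Creld2, and the dimmer Hsp90b1 probe) and 0 lower, whereas 1.84% of all tested probes were called higher and 1.78% lower. The median difference of the 10 genes was 0.62, and that of all probes 0.006. All 1B mice lay above all chow mice for 6 of 15 probes, compared with 5.65% of all tested probes. The count of called probes moved with the fit: it was 7 with slide as a block, 8 with array weights, 1 with median centring, and 0 with the Tukey test of the methods after Benjamini-Hochberg adjustment. The share of all tested probes moved as well. It was 0.462% to 3.38% higher and 0.288% to 3.22% lower over the alternative settings, and 0.998% and 1.28% with median centring. Within the 3 slides that held both groups, 26 of 28 differences of the 10 genes were above 0. Genes that moved together on 3 slides are not independent values, and the share over all probes was not computed. Ribosomal RNA probes had a lower mean in every 1B mouse (-1.16 to 0.12) than in every chow mouse (0.22 to 0.59) and the lowest mean of the 1B mice in mouse 1, and their part in these differences was not tested.

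The effect of the same binge on HFD is the comparison of HFD+1B with HFD. It shares no mouse with the former. Only Pdia4 was called higher, 0 of 15 probes were called lower, and 9.92% of all tested probes were called higher and 8.01% lower (16.5% and 2.58% with median centring, 3.81% and 1.33% with Cy5 alone). The differences were -0.18 for Hspa5 (95% interval -0.79 to 0.43), -0.42 for Creld2 (-1.03 to 0.19), -0.46 for Dnajb9 (-1.03 to 0.11), -0.06 for Hsp90b1 (-0.46 to 0.35), and -0.02 for Hyou1 (-0.47 to 0.43). The median of the 10 genes was -0.12.

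**Figure D3:**
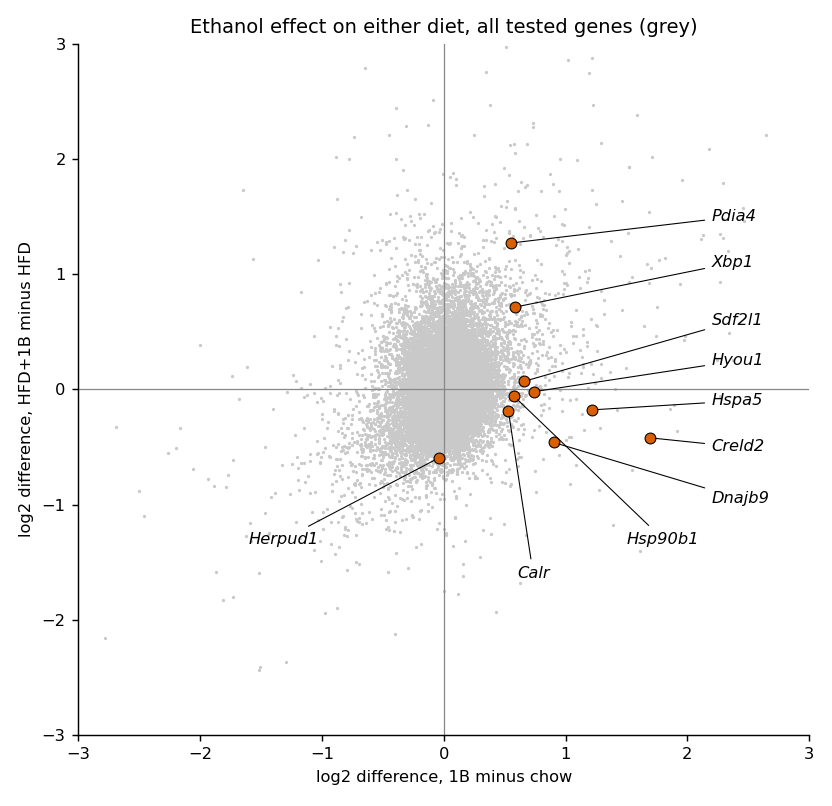
Log2 difference of ethanol on chow (x axis) against ethanol on HFD (y axis) for 19358 genes (grey, 11 outside the axes) and the 10 genes (orange). Creld2, Hspa5, and Dnajb9 lie to the right and below 0, whereas Pdia4 and Xbp1 lie above 0.

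Whether the ethanol effect differed between the diets was tested as the interaction, the ethanol difference on HFD less that on chow. The interaction of Creld2 was -2.11 (SE 0.44, adjusted p 0.0154), and it was called in 17 of 17 fits without 1 mouse (-2.32 to -1.79). It was not called with Cy5 signals alone (-1.86, adjusted p 0.126). Hspa5 had -1.39 (SE 0.40, adjusted p 0.0669) and Dnajb9 -1.36 (SE 0.39, adjusted p 0.0590), both called with slide as a block (-1.37 and -1.47, adjusted p 0.0429 and 0.0211). The other genes ranged from -0.76 in Hyou1 to 0.72 in Pdia4 and were not called. Thus 1 of 15 probes was called lower and 0 higher, and 1.6% of all tested probes were called lower and 2.5% higher (0.467% and 4.77% with median centring, 0.0923% and 0.508% with Cy5 alone). The median of the 10 genes was -0.67. Within the 2 slides that held all 4 groups, 12 of 15 values were below 0, some of them near 0 (Calr -0.008 on slide 2). These genes moved together, so the values describe 2 slides and are not independent. The share over all probes was not computed.

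The diet effect under ethanol is HFD+1B minus 1B, which uses the 1B mice of the first comparison again. Here 11 of 15 probes, of 7 genes, were called lower and 0 higher, and 4.71% of all tested probes were called lower and 5.31% higher. With median centring these were 10 of 15 probes, 1.96%, and 5.29%. The called genes were Creld2 (log2 difference -2.06, SE 0.29, adjusted p 0.000264), Hspa5 (-1.45, SE 0.29, adjusted p 0.00494), Dnajb9 (-1.41, adjusted p 0.00279), Hyou1 (-1.26, adjusted p 0.00104), Sdf2l1 (-1.19, adjusted p 0.00280), Hsp90b1 (-0.62, adjusted p 0.0326), and Calr (-0.57, adjusted p 0.0199). All 3 probes of Dnajb9, both of Hsp90b1, and both of Calr were called, but the dimmer Hyou1 probe was not (-0.15, adjusted p 0.717). Pdia4 (-0.79, adjusted p 0.0908), Herpud1 (-0.80, adjusted p 0.0519), and Xbp1 (0.14, adjusted p 0.861) were not called. For 11 of 15 probes every 1B mouse lay above every HFD+1B mouse, compared with 5.46% of all tested probes. Creld2, Hspa5, Dnajb9, Hyou1, and Sdf2l1 stayed called in 17 of 17 fits without 1 mouse. Without 1B mouse 1, which had the highest 1B value for 9 of the 10 genes, 7 probes were called in place of 11, and the brightest probes of Hsp90b1 and Calr were no longer called (-0.48, adjusted p 0.123, and -0.47, adjusted p 0.0790). That Hsp90b1 probe was also not called without 1B mouse 2 (-0.64, adjusted p 0.0628), HFD+1B mouse 2 (-0.55, adjusted p 0.0768), or HFD+1B mouse 3 (-0.57, adjusted p 0.0730). Within the 4 slides that held both groups, 35 of 38 differences were below 0, again of genes that moved together and without a share over all probes.

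**Figure D4:**
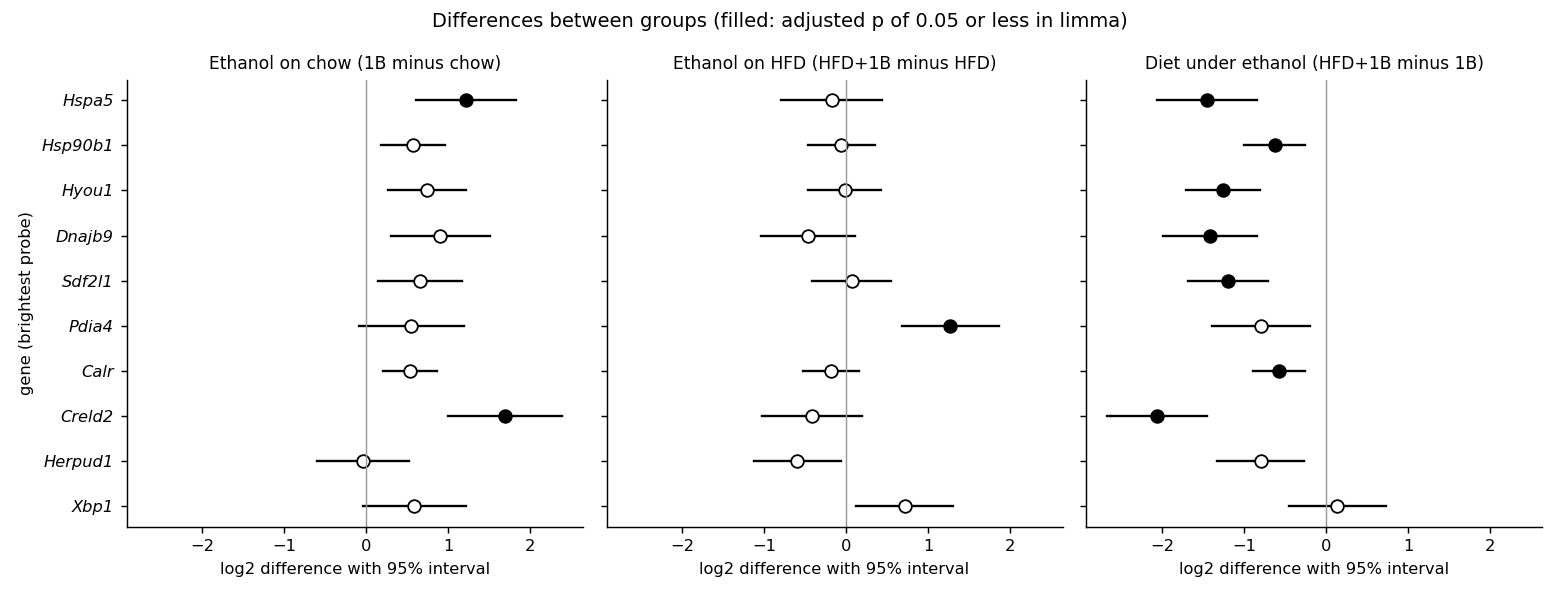
Log2 difference between groups (x axis) with its 95% interval for the brightest probe of each gene (rows) in 3 comparisons, filled where the adjusted p was 0.05 or less. On chow 9 of 10 differences with ethanol are above 0 and 2 of them are filled. On HFD Pdia4 alone is filled, and under ethanol 9 of 10 genes are lower on HFD and 7 of them are filled.

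In the comparisons with chow that involve HFD, which share the chow mice with 1B minus chow, few members were called. In HFD minus chow, Pdia4 was the only 1 of 15 probes called lower and 0 were called higher, whereas 6.1% of all tested probes were lower and 3.88% higher (7.78% and 1.3% with median centring, 2.8% and 0.718% with Cy5 alone). Sdf2l1 (-0.61, adjusted p 0.122) and Hyou1 (-0.49, adjusted p 0.175) were below chow in HFD without a call. In HFD+1B minus chow, Herpud1 was the only 1 called lower and 0 were called higher, with 6.98% of all tested probes lower and 7.79% higher (3.78% and 7.22% with median centring). The medians of the 10 genes were -0.05 and -0.30.

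The mice of a group differed together. HFD mouse 3 had the highest HFD value for 7 of the 10 genes, chow mouse 2 the highest chow value for 7, and chow mouse 3 the lowest for 8. HFD+1B mouse 1 had the highest value of its group for 6 and HFD+1B mouse 2 the lowest for 6. On slide 1, 1B mouse 1 and HFD+1B mouse 1 were the highest of their groups for 9 and 6 genes, and chow mouse 1 and HFD mouse 1 for 3 and 0. Across the arrays with a value for both genes, Pearson r between Hspa5 and Creld2 was 0.98. Herpud1 and Xbp1, with values on all 17 arrays, had r of -0.54 with each other. These values span the 4 groups, so they include the differences between groups, and are given as a description. Without 1B mouse 1 and HFD mouse 3, a setting chosen after the values were seen, Creld2 differed between 1B and chow by 1.46 (adjusted p 0.00220) and Hspa5 by 1.02 (adjusted p 0.0150). HFD mouse 3 is in neither group and enters only through the shared estimate of the spread. Without 1B mouse 1 alone the adjusted p of Hspa5 was 0.146, and without HFD mouse 3 alone it was 0.00231. The p values of this setting are thus no further support for these differences.

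The 10 genes most like the members, by Pearson r with the mean of the scaled members over 17 arrays, were Dnajb11 (0.954), Syvn1 (0.946), Ero1lb (0.926), Ssr2 (0.922), Ppib (0.916), Manf (0.913), Nfxl1 (0.905), Serp1 (0.904), Srprb (0.894), and Rpl15 (0.891), out of 15364 genes compared. Dnajb11 encodes the cochaperone ERdj3, Syvn1 the ubiquitin ligase HRD1, and Manf a protein that binds BiP. These genes were chosen for their likeness over all 17 arrays, group differences included, so their own differences are a description. The log2 difference of Syvn1 was 1.24 in 1B minus chow and -1.42 in HFD+1B minus 1B, and that of Manf was 1.03 and -1.48. Of the 7 with a RefSeq window, 1 (Syvn1) held an ERSE, as did 5 of 109 genes with a window in the pathway lists that follow.

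Other genes of the ER and its stress pathways were taken as 10 lists with 143 gene symbols. Of these, 141 had a probe of that symbol and were tested on the brightest. The lists, like the 10 members, were chosen with earlier results of these data known, so the counts are a description. In 1B minus chow, 15 were higher and 0 lower, compared with 2.09% and 2.05% of the 19358 genes. The median was 0.18. In HFD+1B minus 1B, 42 were lower and 8 higher (5.16% and 6.28% of all genes), with a median of -0.22. In HFD+1B minus HFD, 12 were higher and 12 lower, as were 11% and 8.4% of all genes. In HFD+1B minus chow, 17 were higher and 15 lower (8.9% and 7.4% of all genes), and in HFD minus chow 10 and 6 (4.5% and 6.48%). In the interaction 3 were higher and 13 lower, against 2.67% and 1.72% of all genes.

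Genes for entry into the ER, the translocon and signal peptide processing, had 4 of 21 higher in 1B minus chow and 12 of 21 lower in HFD+1B minus 1B. The 4, named here after their values were seen, were Spcs2 (0.65, adjusted p 0.00666), Srprb (0.79, adjusted p 0.0228), Sec11c (0.43, adjusted p 0.0324), and Srp68 (0.49, adjusted p 0.0432). Of the ER Hsp70, Hsp40, and exchange factors, 1 of 10 was higher in 1B (Dnajb11, 0.76, adjusted p 0.0324) and 4 were lower in HFD+1B minus 1B. Of the disulfide isomerases and oxidases, 0 of 16 were called in 1B minus chow and 7 were lower in HFD+1B minus 1B. In HFD+1B minus HFD the oxidase Qsox1 was higher (0.93, adjusted p 0.00545), and in HFD+1B minus chow Pdia5 (-0.58, adjusted p 0.0381), Erp44 (-0.48, adjusted p 0.000511), and Ero1lb (-0.47, adjusted p 0.0425) were lower. Of the lectin chaperones, 2 of 11 were higher in 1B and 4 lower in HFD+1B minus 1B. For ER-associated degradation these counts were 2 and 3 of 19, and for the oligosaccharide transferase, FKBP, and other folding proteins 3 and 6 of 16.

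The sensors and transcription factors had 3 of 12 higher in 1B, named after their values were seen: Ern1, which encodes IRE1 (0.54, adjusted p 0.0396), Atf4 (0.40, adjusted p 0.0394), and Creb3l2 (0.77, adjusted p 0.0293). Ern1 and Atf4 were lower in HFD+1B than in 1B (-0.55, adjusted p 0.0133, and -0.32, adjusted p 0.0495). So was Atf6b (-0.45, adjusted p 0.0034), named after its values were seen. Atf6b was the only 1 of the 12 called in the interaction (-0.54, adjusted p 0.0277). Creb3l2 and Creb3l3 were higher in HFD+1B than in chow (0.555, adjusted p 0.0462, and 0.52, adjusted p 0.00795). Atf6 was higher in HFD+1B than in chow (0.50, adjusted p 0.0280) and than in HFD (0.57, adjusted p 0.0134).

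Of the targets of PERK and ATF4, in 1B minus chow 0 of 15 were called, in HFD+1B minus chow 6 were higher and 0 lower, and in HFD+1B minus 1B 5 were higher and 0 lower. Ddit4 was higher in HFD+1B than in chow (2.30, adjusted p 2.70e-05) and than in HFD (2.51, adjusted p 3.42e-05). Chac1 was higher by 2.02 (adjusted p 0.000147) and 1.88 (adjusted p 0.000471). Fgf21 exceeded chow by 1.57 in HFD+1B (adjusted p 0.00234) but did not exceed HFD. Its mean with HFD alone was 0.46, above the 0.09 of HFD+1B, and the chow mean was -1.48. In the interaction 3 of the 15 were higher and 0 lower. Of the IRE1 decay substrates, 3 of 6 were higher in HFD+1B than in chow (Sparc 1.42, Col6a1 1.05, and Pdgfrb 0.61), as were 8.9% of all genes. Sparc and Col6a1 encode matrix proteins, and Pdgfrb is also in the stellate marker list. In HFD minus chow 3 of the 6 were higher too (4.5% of all genes), and in HFD+1B minus HFD 0 were called. The means in HFD and HFD+1B were -0.24 and 0.08 for Sparc, 0.17 and 0.09 for Col6a1, and 0.47 and 0.45 for Pdgfrb. Among COPII and retrieval genes 5 of 15 were lower in HFD+1B than in HFD, led by Sec24c (-0.64, adjusted p 0.0106) and Sar1b (-0.64, adjusted p 0.00226).

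**Figure D5:**
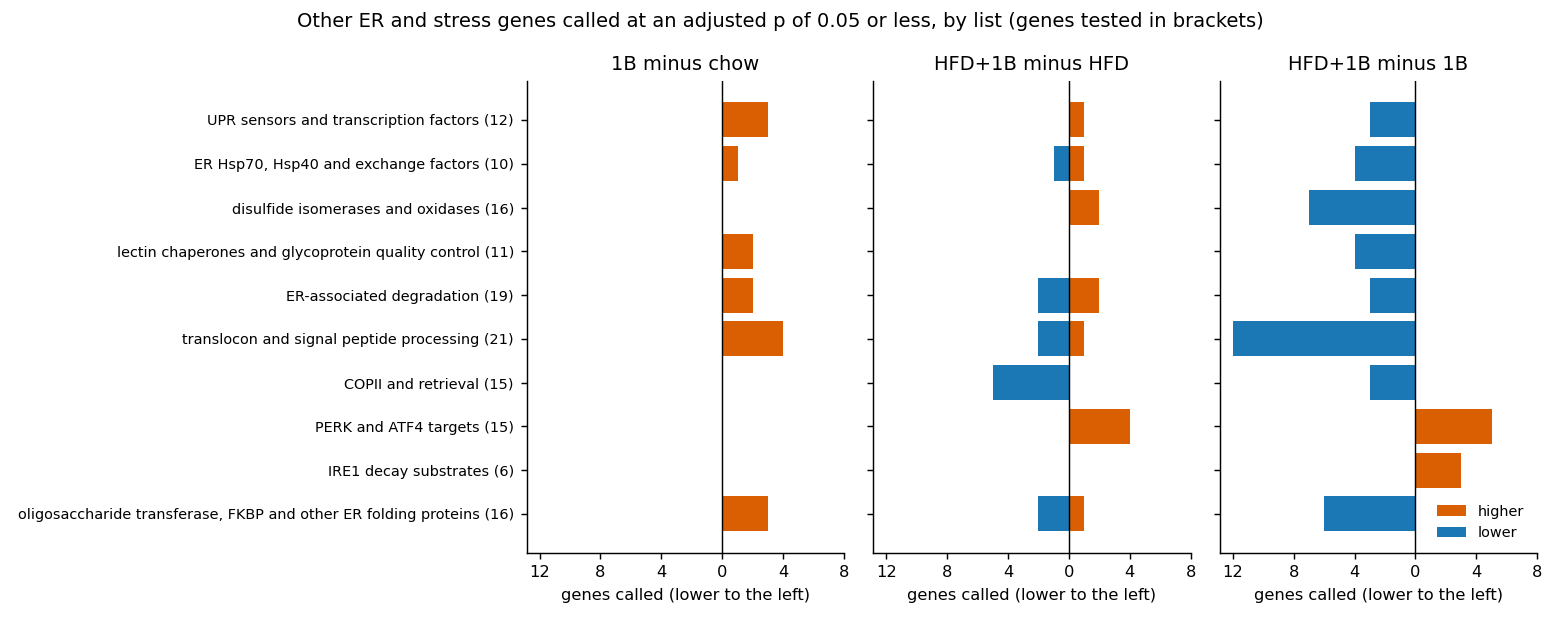
Number of genes called higher (orange, right) and lower (blue, left) in each of 10 lists (rows, genes tested in brackets) in 3 comparisons. The translocon list has 4 higher in 1B minus chow and 12 lower in HFD+1B minus 1B, and the PERK and ATF4 targets have 5 higher in the latter.

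Markers of other cells were read in the same fit. Hepatocyte markers were well above background on all 17 arrays for 11 of the 12 listed, the other having no probe of that symbol, and the mean log2 ratio of 6 of them without a missing value was 0.23 to 0.58 in chow, 0.30 to 0.48 in HFD, 0.20 to 0.42 in 1B, and -0.10 to 0.39 in HFD+1B. That mean leaves out Alb, Apob, Cps1, Fga, and Tat. In HFD and chow, Apob had means of -2.65 and 0.12, Tat -2.04 and -0.68, and Fga -0.17 and -0.85. Of the 11 markers, 1 was called higher in 1B minus chow and 2 lower in HFD minus chow. In HFD+1B minus 1B, 1 was higher and 1 lower. Plasma and B cells, which are rich in ER chaperones, had 0 of 9 markers called in 1B minus chow and 0 of 9 in HFD+1B minus 1B, and the mean of 8 of them was -0.06 to 0.10 in chow, -0.14 to 0.07 in HFD, -0.08 to 0.04 in 1B, and 0.01 to 0.14 in HFD+1B. For pancreatic acinar cells 0 of 8 markers were called in 1B minus chow and 1 was higher in HFD+1B minus 1B, with means of -0.07 to 0.08 in chow, -0.08 to 0.15 in HFD, -0.05 to 0.19 in 1B, and 0.0036 to 0.11 in HFD+1B. Stellate cell markers were 4 of 10 higher in HFD+1B than in 1B, with means of -0.51 to -0.27 in chow, 0.04 to 0.25 in HFD, -0.30 to -0.21 in 1B, and -0.21 to 0.56 in HFD+1B. The mean of 10 neutrophil markers was -0.62 to -0.11 in chow, -0.34 to 0.10 in HFD, -0.38 to 0.27 in 1B, and 0.17 to 0.60 in HFD+1B. Lcn2, which hepatocytes also make when inflamed, carried most of that difference, with a mean of -5.20 in chow, -2.18 in HFD, -1.91 in 1B, and 0.97 in HFD+1B. In HFD+1B minus chow 3 of 11 neutrophil markers were higher (Lcn2, S100a8, and S100a9) and 1 lower (Csf3r, -1.04, adjusted p 0.00469), with 8 of 11 below 0, and in 1B minus chow and in HFD+1B minus 1B 2 were higher (Lcn2 and S100a8) and 0 lower. Sinusoidal endothelial markers had a higher mean in every 1B mouse (-0.25 to -0.15) than in every chow mouse (-0.43 to -0.27), with 1 of 8 called higher, and ranged from -0.32 to 0.0006 in HFD+1B and from -0.12 to 0.09 in HFD. Lyve1 carried that rise from chow to 1B, with a mean of -2.73 in chow and -0.78 in 1B. In 1B minus chow 5 of the 8 were below 0, and the median difference was -0.03. Macrophage markers had a higher mean in every HFD+1B mouse (0.09 to 0.47) than in every 1B mouse (-0.30 to -0.06), with 1 of 9 called higher, and were -0.41 to 0.16 in chow and 0.05 to 0.28 in HFD. The part of these cells in the differences of the 10 genes was not tested.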

How the data were processed

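Liver RNA of 17 mice was measured on 2-color Agilent oligonucleotide arrays, with 5 slides and the same dye assignment throughout. Spots were read by the authors with Feature Extraction 11.5.1.1, and the deposited scanner files hold median signals and local backgrounds of both channels as raw intensity. The log2 ratios deposited by the authors equal the log2 of the ratio of their processed signals (largest difference 2.7e-06 over 40929 single-spot probes), served for gene symbols and as an alternative, and left 0 value columns unassigned. No column of the authors' own comparisons was used.

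From 43379 non-control spots, signals were corrected with normexp at an offset of 50, outlier spots were left out, loess was applied to the log2 ratios of each array, and spots of 1 probe were averaged. Tested probes had Cy5 well above background on 4 or more of the 17 arrays and a value in every group (34664 probes, 3424 missing values). Per array, the median Cy5 intensity was 99 to 138 in chow, 63 to 98 in HFD, 69 to 134 in 1B, and 90 to 158 in HFD+1B, and the offset compresses the ratios of dim probes. The 4 group means were fitted over all 17 arrays with lmFit and eBayes of limma 3.58.1 in R 4.3.3 with the data.table package (1.17.8) (13 residual degrees of freedom), and Benjamini-Hochberg adjustment covered all probes tested.

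The members and lists were chosen with earlier results of these data known. Named genes are the 10 members with all probes, the 10 genes with the highest Pearson r to the mean of the members, and of each list up to 3 genes with the largest difference in HFD+1B minus chow and HFD+1B minus HFD among those called, with some left unnamed for length. Other genes were named after their values were seen, as marked. Alternatives were the deposited log2 ratios, other background corrections, normalizations, filters and call rules, slide or replicate number as a block, array weights, an intensity trend with robust variance, the Tukey test of the methods, the mean of a gene's probes, and leaving out each mouse. Leaving out slide 5, and leaving out 1B mouse 1 with HFD mouse 3, were added after seeing the data. Promoter windows came from RefSeq (GRCm38.p6), and no coordinates of the array annotation, which is of an older build, were used. The retrieval signals at protein ends were not analysed here. The fit was tested on simulated data.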

Additional observations from a re-analysis of the deposited data

Results flagged for a closer look

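Of 54 groups of 4 or 5 mice examined for single probes, 3 had a mouse far from the others, and chance flags about 1 in 20 groups. For the Dnajb9 probe A_52_P150356, HFD mouse 3 had a log2 ratio of 1.20 against -0.24 in the next HFD mouse, a gap of 0.845 of the range of the group. For Xbp1, 1B mouse 1 had 0.65 against -0.21, a gap of 0.861 of the range. For the dimmer Hyou1 probe A_52_P375076, chow mouse 2 had 1.40 against 0.44, a gap of 0.938 of the range. HFD mouse 3 and 1B mouse 1 were also the highest of their groups for 7 and 9 of the 10 genes.

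The ethanol effect differed between the diets for Creld2, by the interaction in limma (-2.1131, SE 0.44, adjusted p 0.0154): 1.69 on chow and -0.42 on HFD.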

How the results depend on the processing

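Of the 15 probes, 3 were called in 1B minus chow, 1 in HFD minus chow, 1 in HFD+1B minus chow, 1 in HFD+1B minus HFD, 11 in HFD+1B minus 1B, and 1 in the interaction. With slide as a block the counts of the first 4 and of the interaction were 7, 2, 2, 2, and 5. With array weights 1B minus chow had 8, HFD+1B had 2 against chow and 2 against HFD, and the interaction had 3. Median centring gave 1 in 1B minus chow, 2 in HFD minus chow, and 2 in HFD+1B minus HFD. Cy5 alone after Aquantile gave 1 in 1B minus chow, 0 in HFD+1B minus chow, 7 in HFD+1B minus 1B, and 0 in the interaction. A 2-fold limit gave 0 in HFD+1B minus chow and 7 in HFD+1B minus 1B with either p, and 4 in the interaction with the unadjusted p. The interaction had 2 without background subtraction, and 3 with scale normalization, with probes above background on all arrays, and with an intensity trend. The Tukey test of the methods gave 5 unadjusted and 0 adjusted in 1B minus chow, 0 adjusted in HFD minus chow, HFD+1B minus chow, and HFD+1B minus HFD, and 3 adjusted in HFD+1B minus 1B. Without slide 5, HFD+1B minus chow and HFD+1B minus HFD had 0 each, and without 1B mouse 1 and HFD mouse 3 they had 2 each. Over 36 settings (34 for the interaction), the share of all tested probes called moved as well. Higher calls, ordered as above, were 0.462% to 3.38%, 0.381% to 7.52%, 1.49% to 10.2%, 1.27% to 16.5%, 0.935% to 6.29%, and 0.508% to 4.77%. Lower calls were 0.288% to 3.22%, 0.984% to 8.34%, 0.955% to 9.21%, 0.415% to 11.6%, 0.539% to 5.97%, and 0.0923% to 3.64%.

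With the replicate block the counts were 2 in HFD+1B minus chow, 3 in HFD+1B minus HFD, 4 in the interaction, and 13 in HFD+1B minus 1B, and Hspa5 lost its call in 1B minus chow (1.21, adjusted p 0.0554). Same-numbered mice deviated together in part: the correlation of 24 pairs was -0.128 to 0.473 (median 0.17), with 16 over 0.1. The mice numbered 1 all lay on slide 1 and had 0.235 to 0.473, so number and slide partly coincide. Since not all pairs correlated, the numbers were not taken as pairs, and neither number nor slide was in the main fit.

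Without 1 mouse at a time, the counts in the order above were 1 to 6, 1 to 1, 0 to 2, 1 to 3, 7 to 12, and 1 to 4. The 1B minus chow count was 1 without chow mouse 3 or 4 or 1B mouse 1 or 2, and the HFD+1B minus chow count was 0 without chow mouse 1 or 2 or HFD+1B mouse 3 or 4. The Herpud1 difference between 1B and chow (-0.04) turned to 0.0011 without chow mouse 1, 0.0038 without 1B mouse 2, and 0.15 without 1B mouse 3, and ranged from -0.17 without 1B mouse 1 to that value. That of Xbp1 between HFD+1B and 1B (0.14) turned to -0.02 without HFD+1B mouse 1 and to -0.029 without HFD+1B mouse 4, its lowest value when 1 mouse was left out, and to -0.14 without slide 5, and was highest at 0.37 without 1B mouse 1. The cause of these changes was not tested. Median centring moved the share of called probes that were higher from 38.9% to 14.3% in HFD minus chow, 52.7% to 65.6% in HFD+1B minus chow, 55.3% to 86.5% in HFD+1B minus HFD, 53% to 73% in HFD+1B minus 1B, and 61% to 91.1% in the interaction. Cy5 alone moved it to 20.4% in HFD minus chow, 74.1% in HFD+1B minus HFD, and 84.6% in the interaction.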
